A study of Mus musculus with 4 samples.

Results

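The regions described here are 2918 of the 145453 distal regions that the authors listed in chromatin accessibility data from mouse mammary gland, each 1000 bases wide and away from promoters. They are the distal regions that were open mainly in stromal-like nuclei, the nuclei to which the authors gave class 6. Membership was set by read counts: a region had to hold at least 10 reads of class 6 nuclei and at least 4 times the level of each of 5 groups of epithelial nuclei. Levels are CPM, reads per 1000000 distal reads of a group, with 0.5 CPM added to both sides of a ratio. Of all distal regions, 13932 reached 10 reads, so the members were 2.01% of the distal regions and 20.9% of those with enough reads. These levels chose the members, so their height in class 6 is a description and not a finding.

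Single-nucleus ATAC-seq, in which a transposase marks open DNA and barcodes keep the nuclei apart, was made from the mammary gland of wild-type CD1 mice. The fetal group was at embryonic day 18 and the adult group at 8 weeks, with 2 biological replicates each. Whether a replicate was 1 animal or a pool was not given in the sources used here, so p-values measure the spread between these libraries. In all 4 libraries the cells had been sorted as EpCAM+ and Lin-, a gate for epithelium that stromal cells should largely fail, so class 6 holds what passed that gate and is not a sample of the stroma. The comparison groups were adult basal-like nuclei (classes 1 and 8), adult luminal progenitor-like nuclei (classes 3 and 7), adult mature luminal-like nuclei (classes 2 and 11), fetal luminal-like nuclei (classes 5 and 9), and fetal basal-like nuclei with class 12 (classes 4 and 12). The names are readings of the gene signals, since the deposited classes carry numbers only.

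Mammary stroma surrounds the epithelial ducts. Its fibroblasts make the collagens and other matrix proteins of the gland, supply growth factors to the epithelium, and depend on mesenchymal transcription factors such as those of the Twist, Prrx, Tbx and Ebf families. Much of the difference between cell types in chromatin lies in distal regions, many of which act as enhancers that switch a gene on in 1 cell type and not in another.

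Class 6 held 213 of 7846 listed nuclei. There were 23 and 33 in fetal replicates 1 and 2, and 82 and 75 in adult replicates 1 and 2. Their reads in distal regions came to 44193, 104311, 141947 and 193536, in the same order, so 1 read is worth 22.6, 9.59, 7.04 and 5.17 CPM. The median stromal-like nucleus had between 4482.5 and 8066 reads by library. No barcode was shared between libraries (0 shared barcodes). Reads are the ends of amplified fragments with no molecular identifier, and both ends of a fragment are listed, so intervals and limits below cover counting error only and are too narrow even for that.

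The sequences that could be read from RefSeq lie in a small part of the members, and they are shown because they name what is there. Of 1005 miRNA hairpins in the RefSeq table (GRCm38.p6, the mm10 build of the regions), 132 distal regions held 1 or more, and 3 members did. Both mouse loci of miR-199a were among them. The member at chr1:162216982-162217981 holds the Mir199a-2 hairpin (chr1:162217814-162217923, plus strand), and the member at chr9:21496434-21497433, inside Dnm2, holds the Mir199a-1 hairpin (chr9:21496495-21496564, minus strand). The hairpins differ outside the mature arms, and both loci list the same pair of mature miRNAs. They are written 5′ to 3′ as RNA, with the seed (bases 2 to 8) in capitals:
Mir199a-2 hairpin: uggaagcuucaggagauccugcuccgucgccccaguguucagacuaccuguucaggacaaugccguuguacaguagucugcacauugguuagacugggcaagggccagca
Mir199a-1 hairpin: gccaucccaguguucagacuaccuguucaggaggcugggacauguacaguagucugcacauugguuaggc
mmu-miR-199a-5p: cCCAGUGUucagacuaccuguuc
mmu-miR-199a-3p: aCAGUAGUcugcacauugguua
The 2 arms have different seeds. The other hairpin, Mir3965 (chr5:134326454-134326522, plus strand), lies in a member at the read minimum, with 10 reads. Its mature miRNA has a seed that neither miR-199a arm shares:
mmu-miR-3965: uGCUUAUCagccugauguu

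The Mir199a-2 member also holds the start of Dnm3os, a noncoding RNA on the strand opposite to Dnm3 that is the known host transcript of this miRNA. It had 2, 19, 22 and 23 stromal-like reads in fetal 1, fetal 2, adult 1 and adult 2, from 28 nuclei. All 4 libraries had reads, at 45.3, 182, 155 and 119 CPM, and the stages overlapped. The 5 comparison groups lay between 0 and 2.73 CPM, so the ratio to the next group was 42.4. The Mir199a-1 member had 5, 4, 13 and 13 stromal-like reads in the same order, against 0.728 to 1.78 CPM in the comparison groups, a ratio of 31.9. The Mir3965 member had 0, 4, 4 and 2 reads and a ratio of 6.94. The miR-199a members therefore lay far inside the threshold of 4, and the Mir3965 member much nearer to it.

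Although called distal by the authors, 50 members held a whole RefSeq start window, that is, 250 bases before to 50 after an annotated transcript start. The table has 32851 such windows, and 55 lay inside members. How many other distal regions hold a window is not given here. Within 2 kb of a start lay 8.67% of members, 8.30% of all distal regions and 15.3% of those with 10 stromal-like reads, so nearness to starts is not particular to members. The windows below were chosen after their values were seen, for the number of stromal-like reads and for known roles. Capitals mark a letter match, on either strand, to 1 of 5 short motifs: CAGATG and CAGCTG (E-boxes, the element bound by Twist and related factors), TGANTCA (AP-1), GGAATG (TEAD) and TGTGGT (RUNX). Ptgs2os2 is a noncoding RNA near Ptgs2, the inducible cyclooxygenase gene, Pde1a encodes a phosphodiesterase, and Tfpi2 encodes a secreted protease inhibitor of the matrix.
Dnm3os (chr1:162217373-162217672, plus strand): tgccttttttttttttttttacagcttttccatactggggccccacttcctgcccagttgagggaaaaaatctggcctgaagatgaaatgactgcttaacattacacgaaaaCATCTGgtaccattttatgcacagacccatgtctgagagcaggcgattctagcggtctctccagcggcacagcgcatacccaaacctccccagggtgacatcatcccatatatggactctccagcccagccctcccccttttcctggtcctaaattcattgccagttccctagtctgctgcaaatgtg
Ptgs2os2 (chr1:150164899-150165198, minus strand): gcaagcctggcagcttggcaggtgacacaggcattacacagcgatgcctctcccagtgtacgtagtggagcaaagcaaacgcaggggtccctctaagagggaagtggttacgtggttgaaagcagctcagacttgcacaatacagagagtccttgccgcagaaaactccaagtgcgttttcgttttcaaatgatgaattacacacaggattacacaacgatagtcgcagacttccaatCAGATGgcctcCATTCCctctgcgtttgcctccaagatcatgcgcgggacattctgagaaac
Pde1a (chr2:80038853-80039152, minus strand): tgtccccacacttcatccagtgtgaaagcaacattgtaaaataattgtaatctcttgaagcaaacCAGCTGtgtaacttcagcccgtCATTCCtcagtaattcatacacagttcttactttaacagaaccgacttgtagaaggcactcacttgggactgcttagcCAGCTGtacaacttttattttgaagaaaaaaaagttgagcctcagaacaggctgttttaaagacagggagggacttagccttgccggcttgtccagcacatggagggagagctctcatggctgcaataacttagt
Tfpi2 (chr6:3968326-3968625, minus strand): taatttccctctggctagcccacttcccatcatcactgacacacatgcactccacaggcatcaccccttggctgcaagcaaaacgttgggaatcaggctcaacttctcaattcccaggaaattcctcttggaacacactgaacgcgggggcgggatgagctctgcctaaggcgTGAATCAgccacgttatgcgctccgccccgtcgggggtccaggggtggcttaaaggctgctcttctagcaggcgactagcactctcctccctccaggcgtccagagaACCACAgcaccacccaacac
Dnm3os has 1 Twist-type E-box, Ptgs2os2 has an E-box of that type and a TEAD match, Pde1a has a pair of CAGCTG E-boxes and a TEAD match, and Tfpi2 has an AP-1 and a RUNX match. Of the 50 members with a window, 18% held CAGATG against 17.2% of all windows, 20% against 16.3% held CAGCTG, 16% against 14.7% held GGAATG, and 24% against 16.8% held TGTGGT. AP-1 was in 14% (7 of 50) against 7.81% of all windows. A further 8 motifs were searched. The NFI motif TTGGCA was in 22% against 14.1% and the SOX motif ACAAAG in 24% against 18.7%. The GATA-factor motif, written AGATAA, was in 12% against 11.2%. The ETS motif CCGGAA was in 10% against 14.9% and the FOX motif TGTTTAC in 4% against 3.65%. The SMAD motif GTCTAG was in 8% against 8.37%, the TBX motif GGTGTGA in 8% against 3.98%, and the HOX motif TAATTA in 8% against 5.29%. In the windows shown no 2 matches overlap. These are shares of few sequences, read as letters only, with 1 window taken for each member. The median content of G and C was 51% in the members' windows and 52.7% in all windows.

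The start windows differed in reads as well as in letters. The Ptgs2os2 member had 0, 15, 8 and 14 stromal-like reads in fetal 1, fetal 2, adult 1 and adult 2, and a ratio of 11.8. The Pde1a member had 0, 4, 4 and 15 reads and a ratio of 12.2. The Tfpi2 member had 0, 6, 7 and 4 reads and a ratio of 5.44. None of these had a read in fetal replicate 1, where 3 reads, the limit that a count of 0 allows, equal 67.9 CPM. Starts of other genes known in connective tissue were held too, such as Pmp22, a membrane protein of Schwann cells and fibroblasts, at 6, 12, 8 and 14 reads and a ratio of 4.80. Ebf1, a transcription factor of B cells and mesenchyme, had a start in a member with 0, 5, 2 and 9 reads and a ratio of 5.75.

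The members were regions of modest depth. A member had 10 to 93 stromal-like reads, with a median of 17, from 2 to 38 nuclei with a median of 8. The stromal-like level ran from 20.7 to 192 CPM with a median of 35.1. Median levels of the same regions were 2.16 CPM in adult basal-like, 1.48 in luminal progenitor-like, 1.36 in mature luminal-like, 1.82 in fetal luminal-like and 2.14 in the fetal basal-like group. All distal regions together had medians of 2.07 CPM in stromal-like nuclei and 2.59 to 3.56 CPM in the 5 groups. The rule also capped the members' level in each epithelial group, so these medians are a description.

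**Figure D1:**
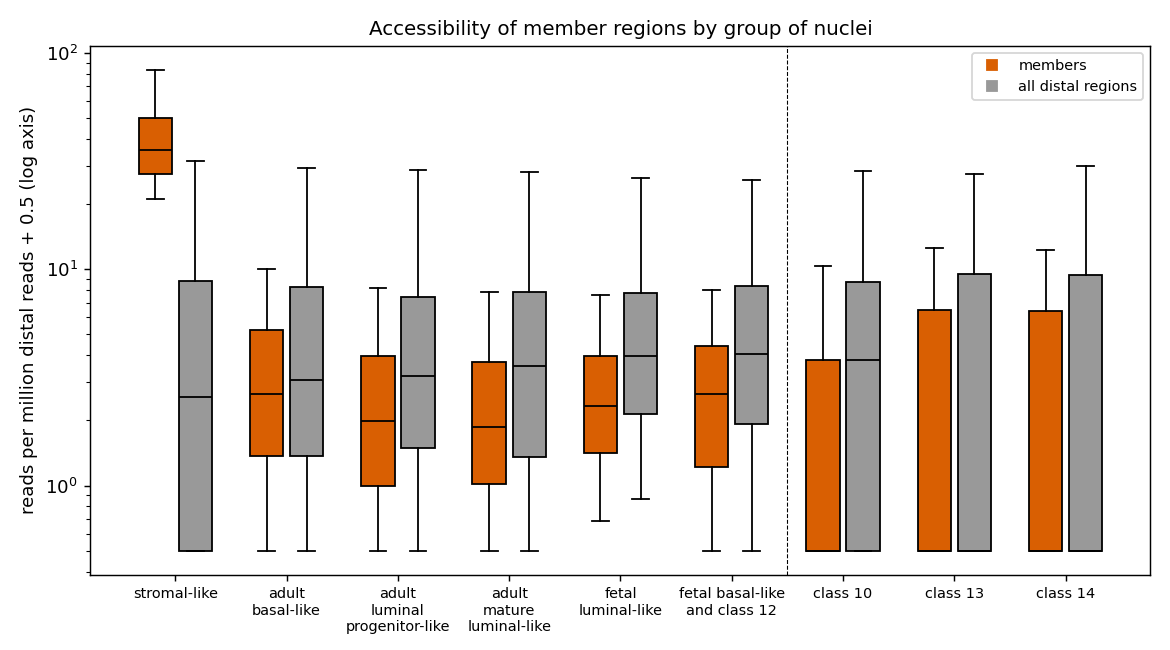
CPM of distal reads plus 0.5 (log axis) for members and for all distal regions, in the 6 groups of the rule and, right of the dashed line, in 3 classes it did not use. Boxes span the quartiles with the median as a line, whiskers the 5th to 95th percentile of regions. The members stand at a median of 35.1 CPM in stromal-like nuclei, which the rule fixed, and at 1.36 to 2.16 CPM in the epithelial groups.

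The ratio to the next group ran from 4.01 to 158 with a median of 6.64. A ratio of 8 or more was reached by 1086 members and of 20 or more by 244, and 731 members (25.1%) lay under 5. In 5 members no read was found in any of the 5 groups. The next group was adult basal-like in 912 members, the fetal basal-like group in 583, mature luminal-like in 521, fetal luminal-like in 453 and luminal progenitor-like in 449. Just inside the threshold were regions nearest to Lacc1 and Strap, both at 4.01, with 18 reads each. Just outside were regions nearest to Tmco5 and Creb5, at 4.00 and 3.99, with 40 and 15 reads. In 156 members the reads came from fewer than 5 nuclei. Adult replicate 2 carried the most reads, and without it 1814 regions would meet the rule.

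Reads of stromal-like nuclei were centred on the members in each library. In 50-base bins, the highest bin lay 100 or 150 bases to the right of the region's middle in all 4 libraries. The central bin was 12.5 to 15.4 times the mean of the outer bins, beyond 1000 bases on either side. Among all other listed nuclei the same ratio was 2.34 to 2.65, with the highest bin 100 bases to the right in each library. The rule chose members by stromal-like reads within them and capped the other groups there, so this contrast is a description. No such ratio is given for other distal regions. The small offset was thus shared by both kinds of nuclei, and its cause was not tested.

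**Figure D2:**
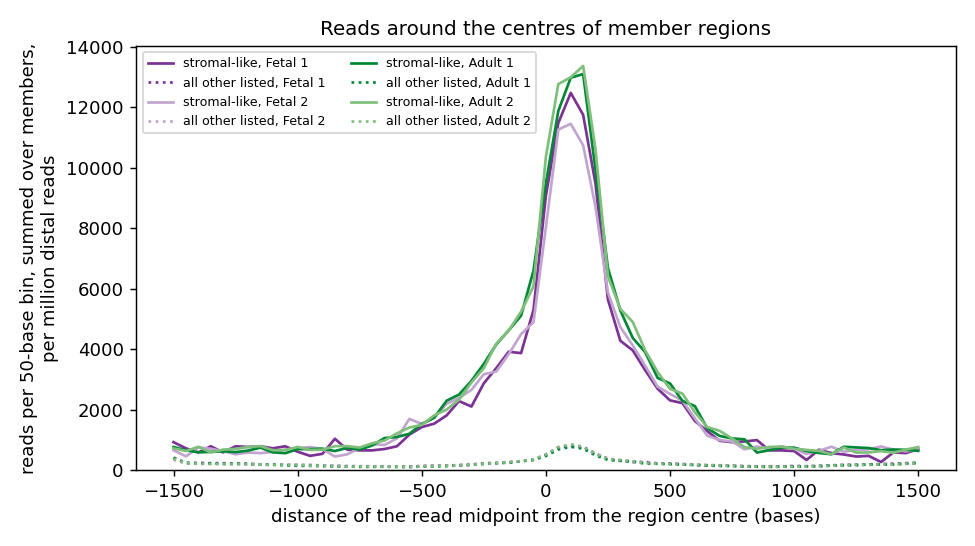
Reads per 50-base bin, summed over the members and scaled to CPM of distal reads, against the distance of the read's midpoint from the region's centre. Solid lines are stromal-like nuclei and dotted lines all other listed nuclei, 1 line for each library. Solid lines form a narrow peak just right of the centre in all 4 libraries, while dotted lines stay near the base of the plot. The rule chose the members by such reads, so the contrast is a description.

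The share of distal reads that fell in members was 11.0% (95% Wilson interval 10.7 to 11.2) and 10.9% (10.7 to 11.1) in the stromal-like nuclei of fetal replicates 1 and 2. It was 12.3% (12.2 to 12.5) and 12.6% (12.5 to 12.8) in adult replicates 1 and 2. Both adult libraries lay above both fetal ones, at 12.5% ± 0.182 (SD, n = 2) against 10.9% ± 0.0198 (SD, n = 2). Of the stromal-like distal reads 69.3% were adult, so the rule drew more on the adult libraries, and the difference between the stages in this share is given as a description.

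The share of distal reads in members varied between single nuclei of class 6. These reads also chose the members, so the contrast with other nuclei is a description. The median stromal-like nucleus had 12.7% of its distal reads in members, with a range of 0.683 to 21.1%, and the median of the 7633 other listed nuclei was 0.714%. Only 3 of those 7633 nuclei reached 5%, 1 of class 5 and 2 of class 8. Of the 213 stromal-like nuclei 27 were under 5%, with 2 in each fetal library, 16 in adult 1 and 7 in adult 2, and 14 lay near that cut, between 4 and 6%. Those 27 had fewer reads over fibroblast matrix genes (741 against 2745 per 1000000 of all their reads) than the other 186, more over immune genes (982 against 214) and more over endothelial genes (1266 against 785). All other listed nuclei had 773, 262 and 743 in the same order, so the 27 did not exceed them over fibroblast matrix genes. The epithelial level of the 27 was 396 against 165 in the other 186 in the same unit, below the 1189 of all other nuclei. The low nuclei were picked by the members' own reads, so this describes them without a test. When they were left out, 3022 regions met the rule, and 2831 of the 2918 members (97.0%) were among them.

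**Figure D3:**
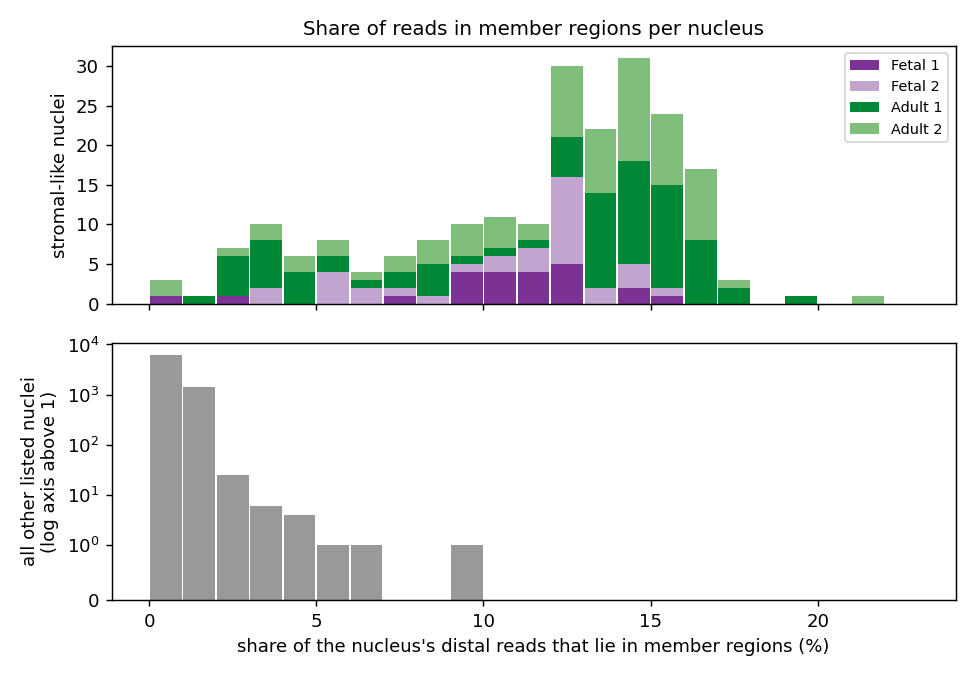
Number of nuclei by the share of their distal reads in members (1% bins), for stromal-like nuclei stacked by library (upper panel) and all other listed nuclei (lower panel, log axis above 1). Most stromal-like nuclei lie between 9 and 17%, a smaller number lies under 5%, and nearly all other nuclei lie under 2%.

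Classes 10, 13 and 14 took no part in the rule. Members reached at least 4 times the level of class 10 in 2723 regions (93.3%), of class 13 in 2500 (85.7%) and of class 14 in 2553 (87.5%). Among all regions with 10 stromal-like reads the shares were 45.8%, 46.8% and 41.9%. Against the 3 classes summed, 2797 members (95.9%) reached the ratio, with a background of 43.2%, and the median ratio was 14.4 against 3.14. No member was lower in class 6 than in the summed classes, and 6 were lower than in class 13 alone. The stromal-like side of these ratios is the level that chose the members, so only the low level in the 3 classes was free to differ. These classes are shallow: 57.7% of members had no read in class 10, 64.0% in class 13 and 63.9% in class 14. The median level in classes 13 and 14 was 0 CPM for members and for all distal regions alike. In class 10 it was 0 for members and 3.29 CPM for all distal regions.

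A library left out of the rule gives levels that the choice of regions did not use. Its nuclei kept the authors' classes, which run across all 4 libraries, so the choice of nuclei was not left out. When members were chosen in the other 3 libraries, the left-out library had at least 4 times the level of each comparison group present in it for 38.6% of 2762 regions in fetal 1, where the background was 21.4%. The shares were 57.1% of 2494 in fetal 2 (background 25.3%), 56.9% of 2266 in adult 1 (background 20.4%) and 59.0% of 1814 in adult 2 (background 20%). Each fetal library was set against its fetal groups and each adult library against its adult groups. In fetal 1, the shallowest, 58.8% of the chosen regions had no stromal-like read. In adult 2, the deepest, 10.1% had none. The background regions differ from the chosen ones in how high they are in the epithelium, and no test was made of these shares.

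Members were unevenly covered by library. A stromal-like read was found in all 4 libraries for 1006 members (34.5%), in 3 for 1351, in 2 for 535 and in 1 for 26. Fetal 1 had no read in 1456 members (49.9%), fetal 2 in 627, adult 1 in 303 and adult 2 in 113, in the order of their depth.

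The gene signals of class 6 were compared with its label. Gene levels here are reads over a gene's span with 2000 bases on either side, per 1000000 reads over all protein-coding spans, and a gene counts as higher at 0.5 log2 above every comparison group, with 2 added. Such reads include those of the members, so this compares the label with the data and is no separate result. Of 25 fibroblast matrix genes 18 were higher in stromal-like nuclei, as were 12 of 25 mesenchymal transcription factors and 6 of 20 growth factor and receptor genes. Of 14 epithelial genes none was higher and 11 were lower than in every group by the same margin. Krt5, a basal keratin, had no read, and Krt14 had 2. Of other cell types, 4 of 8 adipocyte genes were higher, a share like that of the mesenchymal transcription factors. So were 3 of 12 pericyte and smooth muscle genes, 1 of 20 endothelial genes, 1 of 12 immune genes, and none of 7 Schwann cell or 6 skeletal muscle genes. Lower than every group by that margin was 1 gene each of the mesenchymal transcription factor (Lmx1b), adipocyte (Lep), Schwann cell and skeletal muscle lists. By these genes the label stromal-like holds for the class as a sum, with the fibroblast matrix list at the highest count. The class includes the 27 nuclei whose fibroblast matrix level was near that of all other nuclei.

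The summed level of the fibroblast matrix list was 3252, 3235, 3348 and 3513 CPM in fetal 1, fetal 2, adult 1 and adult 2, against 740 to 1627 in the comparison groups. The pericyte and smooth muscle list had 965, 705, 374 and 574 CPM against 355 to 691 in the comparison groups. The highest of these, adult basal-like, stood above both adult libraries and above the 583 CPM of all stromal-like nuclei. The adipocyte list had 643, 535, 293 and 386 CPM against 175 to 235, so every library lay above every comparison group. Both lists were higher in both fetal libraries than in both adult ones. So was the skeletal muscle list, at 91.9, 125, 47.9 and 79.4 CPM, while the fibroblast matrix list was lower in both fetal libraries. In the remaining lists the stages overlapped, and no test was made of these sums. The endothelial list had 882, 1134, 1080 and 1077 CPM against 899 to 1117 in the comparison groups. The immune list had 248, 387, 422 and 317 against 299 to 450. The epithelial list had 147, 178, 149.6 and 365 CPM against 1028 to 1868, so adult 2 stood above the other libraries and below every comparison group. Adult 2 is also the library whose omission left the fewest regions meeting the rule, 1814. The part of these cell types in the members was not tested. In bulk sums over a class, fewer nuclei of a type and less signal per nucleus cannot be told apart.

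Distal regions inside, or nearest to, a gene of the fibroblast matrix list numbered 355, and 37 of them (10.4%) were members, spread over 18 of the 25 genes. All distal regions gave 2.01%. Of the 91 regions of the list with at least 10 stromal-like reads, those that could meet the rule, 40.7% were members, where all such regions gave 20.9%. By this second share the lists did not rank as by the first: it was 44.4% of 9 regions for pericytes and smooth muscle, 40.0% of 10 for adipocytes, 36.8% of 87 for mesenchymal transcription factors, 30.6% of 62 for growth factor signalling, 18.8% of 32 for endothelium and 12.5% of 8 for immune genes. Fbn1, which encodes fibrillin-1 of elastic microfibrils, had 6 members among 16 regions, with 5, 24, 50 and 71 reads in fetal 1, fetal 2, adult 1 and adult 2. Its members summed to 309.9 CPM in stromal-like nuclei, with adult basal-like next at 40.1. Col14a1, a fibril-associated collagen, had 4 members, all inside the gene, with 2, 8, 20 and 23 reads. Col1a1, Col1a2 and Col5a1, chains of fibrillar collagens, had 3 members each. The Col1a1 members had 6, 14, 14 and 14 reads and summed to 99.2 CPM against at most 11.7 in another group. The Col1a2 members, 1 inside the gene and the farthest 155 kb away, had 6, 9, 13 and 27 reads. They summed to 114 CPM against at most 14.2.

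The same list holds enzymes of the matrix. Loxl1, a lysyl oxidase that crosslinks elastin, had 2 of its 6 regions among the members, both inside the gene. The region at chr9:58308353-58309352 had 6, 2, 10 and 26 reads and a ratio of 14.05, and that at chr9:58298843-58299842 had 6, 8, 10 and 15 and a ratio of 4.96. Mmp2, a gelatinase, had 2 members, 1 of them 25.5 kb away at chr8:92800827-92801826 with 4, 6, 9 and 19 reads and a ratio of 6.27. The single member nearest to Dcn, the gene of the proteoglycan decorin, lay 144 kb away and had 0, 0, 13 and 6 reads, that is, no fetal read. Fn1 (fibronectin), Postn (periostin) and Tnc (tenascin-C) had 2 members each, with a member up to 30.1 kb from Fn1, 150 kb from Postn and 486 kb from Tnc. Every list gene named as nearest is so by distance only, and the gene table gives whole spans, so exons and introns were not separated.

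**Figure D4:**
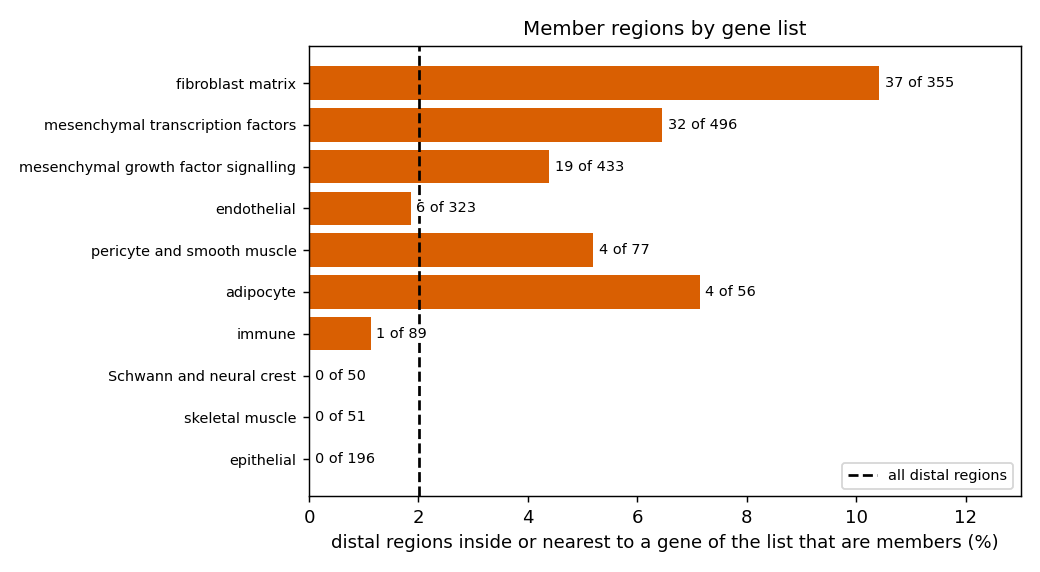
Share of the distal regions inside or nearest to the genes of a list that were members, in percent, with the counts beside each bar. The dashed line is the share of all distal regions, 2.01%. Fibroblast matrix genes stand at 10.4%, and the epithelial, Schwann cell and skeletal muscle lists hold no member, with 6, 0 and 1 regions that had the reads to become one.

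Among mesenchymal transcription factors, 14 of 25 genes had a member, and 32 of their 496 distal regions (6.45%) were members. Zeb2, a zinc finger repressor of epithelial genes, had 7 of 75, at most 1404 kb from the gene. Its strongest member, 658 kb away, had 0, 11, 18 and 11 reads and a ratio of 9.92. Ebf2 had 4 members with 5, 17, 32 and 42 reads in sum, and 3 of them were inside the gene. Ebf1 had 2, both inside, and the one at chr11:44723640-44724639 had 0, 3, 12 and 24 reads with all comparison groups at 0 to 0.863 CPM, a ratio of 59.5. Twist1, a master factor of mesenchyme, had 3 of its 5 distal regions among the members, with 0, 11, 12 and 18 reads. Tbx18 had 2, outside the gene and up to 237 kb away. They had 2, 15, 14 and 15 reads in sum, and 95.04 CPM against at most 1.82 in another group. Tcf21, a factor of fibroblast precursors in several organs, had 1, at 54.9 kb, with 0, 0, 23 and 19 reads and a ratio of 12.5. Its gene level was 8.71 in stromal-like nuclei and 12.8 in the fetal basal-like group, so the gene itself was not higher. Meox1, Foxf1, Tbx15 and Prrx2 had 1 member each.

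Ligands and receptors of growth factor pathways had members at 11 of 20 genes, 19 of 433 distal regions (4.39%). On the ligand side, Wnt5a had 1 member at 2.04 kb from the gene with 7, 6, 8 and 4 reads, and Igf1 had 2 with 9, 6, 8 and 18. Cxcl12, a chemokine of stroma, had 3 with 2, 4, 19 and 27, up to 198 kb from the gene. The Wnt5a member had 7 reads in fetal 1, where the median member had 1. A member did not mean a higher gene level, which 6 of the 20 genes had by the margin above. The gene level of Wnt5a was 25.3 in stromal-like nuclei, below the 29.9 to 91.6 of the comparison groups. Among receptors, Tgfbr2, the type 2 receptor of TGF-beta, had 4 with 7, 14, 33 and 53 reads. The strongest lay 91.4 kb away at chr9:116266785-116267784, with 0, 10, 26 and 21 reads and mature luminal-like nuclei next at 17.0 CPM. Its co-receptor Tgfbr3 had 3 inside the gene with 6, 14, 14 and 31 reads. The gene level of Tgfbr3 was 572 in stromal-like nuclei and 629 in adult basal-like ones. Pdgfrb, a receptor of fibroblasts and pericytes, had 1 with 3, 4, 2 and 8 reads. Gli2, a transcription factor of hedgehog signalling, had 1 of 71, with 4, 14, 4 and 5 reads and a ratio of 5.77.

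Lists of other stromal cells had few members in number. By share of distal regions, the adipocyte list and the pericyte and smooth muscle list ranked with the mesenchymal transcription factor and growth factor lists. Endothelial genes had 6 of 323 (1.86%), near the 2.01% of all distal regions, and 3 of the 6 belonged to Ets1, a factor also used outside endothelium. The Kdr member, near the gene of the main VEGF receptor, had 2, 0, 10 and 6 reads and a ratio of 4.03. The pericyte and smooth muscle list had 4 of 77 (5.19%): 3 inside Cspg4 with 3, 19, 17 and 26 reads in sum, and 1 near Mcam with 0, 8, 0 and 10. The adipocyte list had 4 of 56 (7.14%): 2 inside Pparg, the main regulator of fat cells, with 10, 8, 12 and 20 reads, 1 inside Lpl and 1 near Cebpa. The immune list had 1 of 89 (1.12%), near Cd3e, with 0, 2, 10 and 6 reads. The epithelial list had 0 of 196, and the Schwann cell and skeletal muscle lists 0 of 50 and 0 of 51. Of these regions 6, 0 and 1 had the 10 stromal-like reads that the rule asks for, so the read minimum alone nearly fixed these counts.

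The members with most stromal-like reads were mostly at genes outside these lists. The leading region, at chr11:49810836-49811835 inside Gfpt2, an enzyme of the hexosamine pathway, had 6, 27, 35 and 25 reads from 38 nuclei. These are 136, 259, 247 and 129 CPM, with the lowest value in an adult library, against at most 9.06 CPM in another group. The region inside Cyp2s1, a cytochrome P450 gene, had 10, 13, 29 and 33 reads and a ratio of 9.25. The region inside Slc37a1, a transporter of sugar phosphates, had 8, 15, 29 and 23 reads and a ratio of 7.74. Those inside Kcnv2 and Tln2 had 9, 15, 17 and 29 reads and 8, 19, 9 and 33 reads, with ratios of 21.0 and 18.7. Tln2 encodes talin 2, which links integrins to actin, and Kcnv2 a subunit of potassium channels.

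In 5 of these 8 regions the stages overlapped. They did not overlap in 43.6% of all members and in 41.4% of all tested regions, so the other 3 are near the background. At Tln2 the fetal libraries had 181 and 182 CPM and the adult ones 63.4 and 171, a small gap between the highest adult and the lowest fetal value. The region 7.76 kb from Hspa4, a chaperone gene, had 17, 14, 15 and 19 reads, equal to 385, 134, 106 and 98.2 CPM, so both fetal libraries lay above both adult ones. The region 63.3 kb from Sv2b, which encodes a synaptic vesicle protein, had 0, 4, 39 and 28 reads, equal to 0, 38.3, 275 and 145 CPM. There both adult libraries lay above both fetal ones, and the comparison groups stood at 0 to 0.682 CPM, a ratio of 125. In fetal 1, 3 reads would have been 67.9 CPM, so its 0 does not place it below fetal 2.

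**Figure D5:**
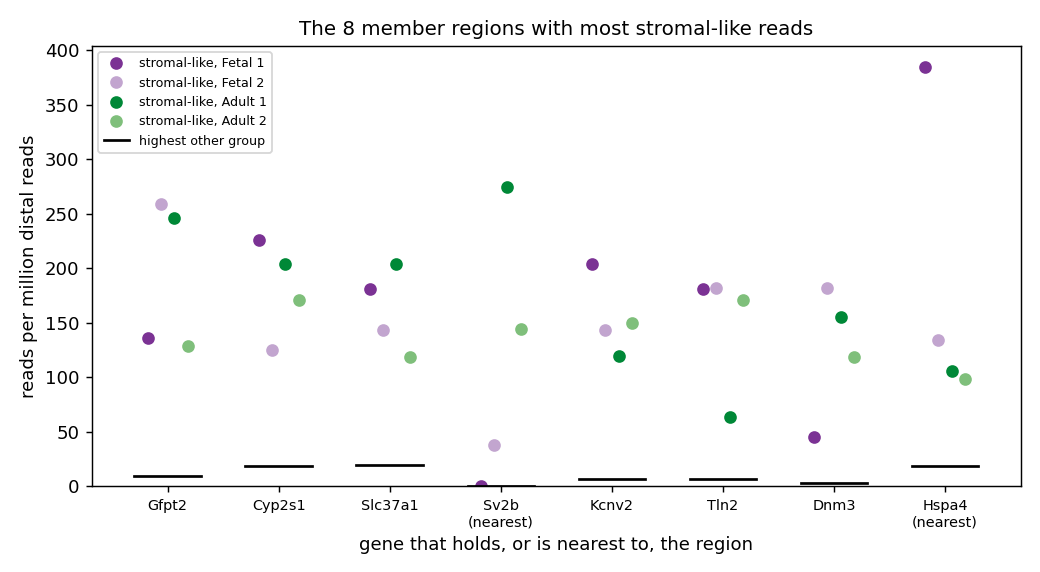
CPM of stromal-like nuclei in each of the 4 libraries (points) and of the highest comparison group (black line) for the 8 members with most stromal-like reads. Gene names mark the gene that holds the region or, where so labelled, the nearest one. Points lie far above the lines except fetal 1 at Sv2b, which is at 0, and the fetal 1 point at Hspa4 is the highest of all, at 385 CPM.

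Some genes had several members. Members fell inside or nearest to 2031 genes, of which 1477 had 1 member and 83 had at least 4. Adam12, a metalloprotease of mesenchyme, had 10 of its 21 distal regions among the members. Col4a1, a chain of basement membrane collagen, had 9 of 40, Rad51b, a DNA repair gene with a long span, 12 of 102, and Nfia, a nuclear factor I gene, 8 of 96. Zbtb16, Jarid2, Zeb2 and Tns1 had 7 each. Within 25 kb of another member, from centre to centre, lay 763 members (26.1%). The share with a member that near was 18.05% of the 11014 other regions with 10 stromal-like reads and 9.46% of all other distal regions. In all, 71 runs of at least 3 held 245.

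The run with the most members had 7 over 25.5 kb of Col4a1 (chr8:11249295-11274755), with 10, 57, 50 and 101 stromal-like reads in fetal 1, fetal 2, adult 1 and adult 2. Their summed level was 450 CPM against at most 34.5 in another group. A run of 5 near Emsy and Lrrc32, the latter a cell surface anchor of latent TGF-beta, had 14, 29, 44 and 71 reads. The run of 5 at Dnm3 that ends with the Mir199a-2 member had 10, 36, 47 and 55. Nid1, another basement membrane gene, had a run of 5 with 8, 22, 38 and 55 reads, and Adam12 one with 7, 27, 20 and 22. A run of 4 lay at the chemokine genes Ccl2 and Ccl7, with 14, 37, 33 and 41 reads, 258 CPM in sum against at most 25.0. Genes of these runs were named after their counts were seen.

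By position the members resembled other distal regions. Inside the span of a gene lay 52.2% of members and 54.1% of all distal regions. The median distance to a RefSeq start was 23.04 kb against 22.1 kb, but 16.7 kb among regions with 10 stromal-like reads. Within 2 kb of a start lay 8.67% of members, 8.30% of all and 15.3% of regions with 10 reads. By the median the members lay as far from starts as the usual distal region, and farther than the regions that reached the read minimum.

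Promoter regions played no part in the rule. Of the authors' promoter regions that were nearest to a member within 50 kb, 802 had at least 10 stromal-like reads. Of these, 72 (8.98%) had at least 2 times the level of every comparison group, against a background of 4.24% of 10232 promoter regions, and 17 (2.12%) had at least 4 times, against 0.987%. The median ratio was 0.971 beside these members and 0.898 overall. By the median, a promoter region beside a member was at a like level in stromal-like nuclei and in its highest epithelial group.

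The authors' deposited Cicero table scores how pairs of regions open together across all nuclei, so it draws on the same reads as the rule. At a score of 0.25 or more, 356 members (12.2%) had a partner, against 14.6% of all distal regions and 25.6% of those with 10 stromal-like reads. A partner that was itself a member was found for 283 members (9.70%), where 0.267% of all distal regions and 2.66% of those with 10 stromal-like reads had such a partner. A promoter partner was found for 44 (1.51%), against 2.21% of all and 5.72% of those with 10 reads. Of the table's 32718 pairs at this score, 222 joined 2 members and 184 a member with another region, so 54.7% of pairs with a member joined members to each other.

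The member with most partners was the Col4a1 region at chr8:11249295-11250294, with 11 partners, 8 of them members and 1 a promoter. It had 2, 16, 19 and 27 stromal-like reads in fetal 1, fetal 2, adult 1 and adult 2, and a ratio of 20.3. Next came the region at chr8:11384363-11385362 inside Col4a2, the gene beside Col4a1 that encodes its partner chain, with 9 partners, 7 of them members, and 4, 5, 9 and 27 reads. The region 11.9 kb from Emsy at chr7:98574280-98575279 had 8 partners, 4 of them members, with 6, 6, 9 and 19 reads and a ratio of 67.1.

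The authors' deposited chromVAR scores give, for each nucleus, how far regions with a factor's motif are open beyond the average, over all regions and not the members alone. Only a chosen set of the deposited motifs was read. Among them the median over class 6 nuclei was the highest of the 14 classes for Cebpb (1.37), Erg (1.24), Ets1 (1.08), Mef2c (0.857), Nfatc1 (0.774), Gata2 (0.643), Msc (0.389) and Ebf1 (0.333). Erg and Ets1 are also genes of the endothelial list. For Cebpb, a bZIP factor, the library medians were 1.53, 1.18, 1.28 and 1.55 in fetal 1, fetal 2, adult 1 and adult 2, against 0.676 in the next class. Ebf1 had 0.617, 0.323, 0.142 and 0.365 against 0.04995. The lowest medians of the 14 classes were those of Tcf12 (-3.59), Tcf4 (-3.45) and Snai2 (-3.44), whose motifs are E-boxes, and of the epithelial factors Grhl1 (-2.21) and Trp63 (-1.57). Snai2 was at -3.44, -3.91, -3.14 and -3.66 in the 4 libraries, and the lowest other class at -1.13. Factors that bind like motifs cannot be told apart by such scores, and Twist1, whose gene has 3 members, had a median of -0.103, ranked 13 of 14.

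Fetal and adult libraries were compared within class 6, since the rule pooled both stages. With edgeR's quasi-likelihood test over the 13932 regions, no region and no member passed an adjusted p of 0.05 (0 called, 0% of regions). The lowest adjusted p was 0.438, and DESeq2 also called 0. At an unadjusted p under 0.05 stood 341 members (11.7%), 68 higher in the fetal and 273 higher in the adult libraries. The background was 8.1% of all tested regions, 1.21% higher in the fetal and 6.89% higher in the adult libraries. The median log2 difference, fetal minus adult, was -0.58 in members and -0.52 in all regions, so both were shifted and by a like amount.

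That lean towards the adult depended on single libraries and on the scaling. Without adult replicate 1, 48 members were higher in the fetal and 43 in the adult libraries at an unadjusted p under 0.05, of 2108 tested, with 1.37% and 1.21% of all tested regions as background. Without adult replicate 2 these counts were 67 and 41 of 1632 (background 2.47% and 1.62%), so in both cases the larger count was fetal. Without fetal replicate 2 they were 38 and 563 of 2353 (background 1.43% and 18.1%), and without fetal replicate 1 they were 89 and 359 of 2667 (background 2.63% and 10.8%). The median log2 difference of members stayed below 0 in these fits, from -1.74 without fetal replicate 2 to -0.32 without adult replicate 2. Each such fit has a single library on one side, assumed to vary like the others. TMM factors ran from 0.848 to 1.47, the highest in fetal 1. When libraries were scaled by their total distal reads, medians were -0.21 in members and -0.15 in all regions, and 121 members were higher in the fetal and 171 in the adult libraries at an unadjusted p under 0.05. The background was then 2.84% and 3.79%. Without fetal replicate 1, 2 regions were called and 1 of them was a member.

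The members with the lowest unadjusted p in each direction show what such differences look like in reads. The region at chr6:141041627-141042626, 207 kb from Pde3a, had 14, 23, 4 and 9 reads, equal to 317, 220.5, 28.2 and 46.5 CPM, with both fetal libraries above both adult ones. Its log2 difference was 2.45 ± 0.71 (SE), with an adjusted p of 0.438 by edgeR. Among regions with at least 40 reads it was called, with a log2 difference of 2.82. The region at chr2:174008157-174009156, 67.1 kb from Stx16, had 2, 21, 2 and 0 reads, so 1 fetal library carried it, and its log2 difference was 4.11 ± 1.22 (SE). It is the member called without fetal replicate 1. The region at chr5:110927966-110928965 inside Ttc28 had 3, 11, 0 and 0 reads, at least 10.5-fold higher in the fetal libraries when the adult count is set to 3 reads over both.

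On the adult side were regions with no fetal read. The Tcf21 region named above (chr10:22875026-22876025) had 23 and 19 adult reads, from 9 and 8 nuclei, at least 6.20-fold higher than a fetal count of 3 reads over both libraries. The region at chr4:139154126-139155125, 23.01 kb from Micos10, had 19 and 17 adult reads, at least 5.31-fold higher by the same limit. Each region named for its stage difference had an adjusted p of 0.438 by edgeR. No read in either fetal library was found for 368 members (12.6%), the share among all tested regions being 12.7%. By reads the fetal libraries were the smaller side, with 30.7% of the stromal-like distal reads.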

How the data were processed

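Single-nucleus ATAC-seq of 4 libraries (2 fetal, 2 adult) was used as deposited. Per the submitters' processing notes Bowtie2, MACS2, bedtools and the mm10 build were used. Their versions and roles, duplicate removal and any shift of cut sites are not given in the sources used here. The authors deposited read positions with barcodes, lists of nuclei, region lists, class numbers with chromVAR scores, and Cicero scores. Read counts per nucleus in the authors' deposited table were whole counts and equalled the reads of the barcode in all nuclei. The chromVAR deviations are the authors' scores, with no stated scale. Cicero co-accessibility is the authors' score over all nuclei.

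Reads of listed nuclei were counted in every distal region that they touched by 1 base or more, by class and library. The listed nuclei of each library held 6028168, 15801908, 13588107 and 19304830 reads in fetal 1, fetal 2, adult 1 and adult 2. Class 6 sums were tested, fetal against adult, with edgeR 4.0.16 (quasi-likelihood, TMM, at least 10 reads over 4 libraries, Benjamini-Hochberg) in R 4.3.3, with DESeq2 1.42.0 as an alternative. The fit was tested on simulated data with known changes, of which it called few at the depth and spread of these libraries. It called nearly all at a higher depth that was simulated with a smaller spread between libraries. The parts of depth and spread in this were thus not told apart. The SE of a log2 difference is its size over the square root of F. No doublet caller was run, since the deposited classes were taken as they stood. Python 3.11.15 was used for counting. Genes, starts and sequences came from RefSeq GRCm38.p6. No genome was used here, so sequences are limited to start windows and miRNAs. Named regions were the 8 members with most reads, up to 3 per gene list, the 3 of lowest p in each stage direction, 2 on either side of the threshold and 3 with most partners; others are said to be chosen after their values. One region that this rule names is not reported here. Members, gene lists and tests were chosen with earlier results of these data known. Alternatives were another overlap rule, other added levels, ratios, filters and scalings, a replicate block and leaving out each library. Requiring 5 nuclei, leaving out low nuclei and TMM with singleton pairing were added after seeing the data. Same-numbered libraries did not deviate together (correlation 0.0035), so the numbers were not taken as pairs.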

Additional observations from a re-analysis of the deposited data

Results flagged for a closer look

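Reads of barcodes that the authors did not list as nuclei were used in no comparison. Their share in members was 0.963% of 137352 distal reads in fetal 1 (95% Wilson interval 0.913 to 1.02), 1.05% in fetal 2 (1.01 to 1.09), 0.932% in adult 1 (0.911 to 0.953) and 1.02% in adult 2 (1.00 to 1.05). Listed nuclei outside class 6 had 0.771%, 0.771%, 0.718% and 0.769%, so the unlisted barcodes were higher in all 4 libraries. All listed nuclei together, class 6 included, had 0.956%, 0.938%, 1.00% and 1.06%. The unlisted share was thus below that of all listed nuclei in both adult libraries and above it in fetal 2. In fetal 1 the 0.956% of all listed nuclei lay inside the interval of the unlisted share, so these 2 shares were not told apart.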

How the results depend on the processing

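The number of members was 1086 at a ratio of at least 8, and it ran from 1814 to 2762 when 1 library was left out, with the lowest value without adult replicate 2, since fewer regions then reach 10 reads. Under the other alternatives, among them counting by read midpoint, adding 0.1 or 1 CPM, a ratio of 3 (4072 regions) and classes 10, 13 and 14 as further groups (2118 regions), it was within 1.5 times 2918. In the stage test 0 regions were called. A filter at 40 reads gave 1 called region, a member, with 851 regions tested. Leaving out 1 library gave 0 to 2 called regions and 0 to 1 called members, and the calls came without fetal replicate 1. Under the replicate block 0 were called, and 287 regions stood at an unadjusted p under 0.05 against 1128 without it; the block changed no call. The 5 regions named for stage kept their direction under every alternative in which they were tested. Few reads per region limit the stage test: 1 read in fetal replicate 1 is worth 22.6 CPM, more than the 20.7 CPM of the lowest member.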
